A study of Mus musculus with 4 samples.

Results

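The genes described are 7 lipolysis enzymes and regulators of fat cells, Pnpla2, Lipe, Mgll, Abhd5, G0s2, Plin1 and Pde3b, chosen by name out of 37315 Ensembl identifiers in the count files. Their m6A peaks, the peaks whose midpoint lay in the span of one of these genes, numbered 18 of 31856 in the entacapone list and 5 of 22860 in the vehicle list. The study gave entacapone or vehicle to male C57BL/6 mice, aged 23 weeks, with obesity from a high-fat diet. It profiled N6-methyladenosine (m6A) in RNA of their inguinal white adipose tissue. Entacapone is a drug used in Parkinson's disease that is also reported to inhibit FTO, an enzyme that removes m6A. The 4 libraries were an entacapone m6A immunoprecipitate (IP), an entacapone input, a vehicle m6A IP and a vehicle input, 1 of each. All mice shared the strain and the diet, so no lean animals enter. Every library came from mice given entacapone or vehicle, and the vehicle libraries are the comparison without the drug. Whether a library is 1 animal or a pool is not stated. With 1 library per group there is no replicate and no test across samples, and every interval below covers counting error only.

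Lipolysis takes the triglyceride of the fat droplet apart one fatty acid at a time. Pnpla2 (adipose triglyceride lipase) makes the first cut, Lipe (hormone-sensitive lipase) cuts diacylglycerol and Mgll (monoglyceride lipase) releases the last fatty acid and glycerol. Abhd5 activates Pnpla2, G0s2 binds and inhibits it, Plin1 coats the droplet and holds Abhd5 back until protein kinase A phosphorylates it, and Pde3b breaks down the cyclic AMP that drives that kinase, downstream of insulin. An m6A peak is a stretch of transcript over-represented after pull-down with an antibody against the modified base.

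The entacapone input held 33164576 gene-assigned counts and the vehicle input 24548212, so the entacapone library was 1.35 times as deep. The count files carry identifiers only, and the 7 names were paired with their identifiers in the list that defined the set. Levels of marker genes of adipocytes and of other cell types were therefore not analysed here, and the markers could be read in the peak lists alone. There, 4 of 8 white adipocyte markers carried an entacapone peak and 2 a vehicle peak, 0 of 4 brown and beige adipocyte markers carried a peak in either list, and 4 of 4 endothelial markers carried an entacapone peak and 1 a vehicle peak. For the lymph node, skeletal muscle and macrophage lists the markers with an entacapone peak were 4 of 5, 2 of 5 and 1 of 4, and those with a vehicle peak were 3, 3 and 2. For the stromal, erythroid, skin and gland epithelium and liver lists, those with an entacapone peak were 3 of 4, 4 of 5, 5 of 5 and 1 of 3, and those with a vehicle peak 2, 2, 3 and 0. Over all 21887 protein-coding genes, whatever their input level, 49.1% carried an entacapone peak and 40.2% a vehicle peak. Peak presence is not a level, and the part of cell makeup in the results below was not tested. In bulk tissue, fewer cells of a type and less RNA per cell cannot be told apart.

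The promoter windows of the 3 genes whose input level differed most between the libraries, G0s2, Mgll and Pnpla2, are shown for context. They run 5′ to 3′ on the strand of the gene, from 250 bases before to 50 bases after the annotated transcription start, and come from RefSeq on GRCm38.p6. G0s2 lies on the minus strand at chr1:193273139-193273438, Mgll on the plus strand at chr6:88724162-88724461 and Pnpla2 on the plus strand at chr7:141454938-141455237. For Mgll, 1 of 2 annotated starts is shown. Capitals mark matches to the motifs described next.
G0s2: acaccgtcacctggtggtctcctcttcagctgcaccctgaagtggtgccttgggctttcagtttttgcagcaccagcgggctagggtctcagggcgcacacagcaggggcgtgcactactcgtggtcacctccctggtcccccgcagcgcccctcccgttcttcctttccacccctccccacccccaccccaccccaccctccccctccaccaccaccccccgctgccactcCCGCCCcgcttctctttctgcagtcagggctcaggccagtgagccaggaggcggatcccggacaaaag
Mgll: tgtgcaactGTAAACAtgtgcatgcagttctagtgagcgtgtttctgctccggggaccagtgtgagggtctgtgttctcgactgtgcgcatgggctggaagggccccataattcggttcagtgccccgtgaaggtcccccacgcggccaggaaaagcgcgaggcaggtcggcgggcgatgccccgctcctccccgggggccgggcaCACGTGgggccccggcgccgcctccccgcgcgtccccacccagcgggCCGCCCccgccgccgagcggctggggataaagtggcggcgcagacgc
Pnpla2: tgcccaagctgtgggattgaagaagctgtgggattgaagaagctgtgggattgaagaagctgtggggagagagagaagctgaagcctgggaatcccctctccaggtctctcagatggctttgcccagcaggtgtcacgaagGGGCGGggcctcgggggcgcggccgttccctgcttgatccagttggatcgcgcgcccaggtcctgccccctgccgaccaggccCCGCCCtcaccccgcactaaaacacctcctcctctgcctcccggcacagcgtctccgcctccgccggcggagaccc

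Each of 7 motifs was searched on both strands, and the share of all 32851 windows in the table that hold it is given with its letters. The FOXO element, TGTTTAC, was in 3.65% of all windows. The nuclear receptor half-site, AGGTCA, was in 16.3%. The E-box, CACGTG, was in 7.15%, and the GC box, which reads GGGCGG, was in 35.7%. The CCAAT box, searched by those letters, was in 37.4% of windows. The TATA box, searched as TATAAA, was in 13.6%. The cAMP response element, whose letters are TGACGTCA, was in 1.79%.

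G0s2 held 1 GC box, which began 18 bases before the start, and none of the other 6 motifs. Pnpla2 held 2 GC boxes, 109 and 26 bases before the start, and no other motif of the set. Mgll held a FOXO element 241 bases before the start, an E-box 44 bases before it and a GC box 3 bases after it, none of which overlapped. Lipe, Abhd5 and Plin1, not printed, had windows too, 8 in all for the 6 genes with an entry. Of the 2 Lipe starts with a window, the upstream one had an E-box 155 bases before it and 6 GC boxes in its window. The Lipe span reaches further upstream, to base 25398486 of chromosome 7, where no window was given. The downstream one had a FOXO element 119 bases before it and no other motif of the set. Abhd5 held a nuclear receptor half-site 69 bases and a GC box 136 bases before the start. The Mgll window not printed held only a GC box, 121 bases before its start, and Plin1 held no motif of the set. These matches describe letters in the window, and no binding was measured.

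Among the 7 genes, the inhibitor G0s2 fell and Pnpla2, the lipase it inhibits, had the largest ratio in the other direction. G0s2 (ENSMUSG00000009633) had 6364 counts in the entacapone input and 8341 in the vehicle input, although the entacapone library was the deeper one. Scaled with TMM factors to the size of each library, as CPM, that is 187 CPM in the entacapone input against 349 CPM in the vehicle input, a log2 ratio of -0.90, or 1.87-fold lower with a 95% interval of 1.81 to 1.93. A gene is called higher or lower here when the whole interval of its ratio lies beyond 1.5-fold. By that rule 1 of the 7 genes, G0s2, was called lower and 0 were called higher, where 3.09% of the 13820 identifiers tested, those averaging 1 CPM or more, were called lower and 4.87% higher. The 7 genes all exceeded 100 CPM on average, and among the 1787 identifiers at that level, a limit set after the data were seen, 5.71% were called lower and 1.73% higher. Only 2.41% of the 13820 identifiers had a lower ratio than G0s2.

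Pnpla2 (ENSMUSG00000025509) had 115350 counts in the entacapone input and 65136 in the vehicle input. The levels were 3383 CPM in the entacapone input and 2728 CPM in the vehicle input, a ratio of 1.24 (95% interval 1.23 to 1.25) that stayed inside 1.5-fold. A larger ratio was seen for 18.3% of the 13820 identifiers and for 8.39% of those above 100 CPM. The excess lay beyond counting error and short of the limit used for a call.

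**Figure D1:**
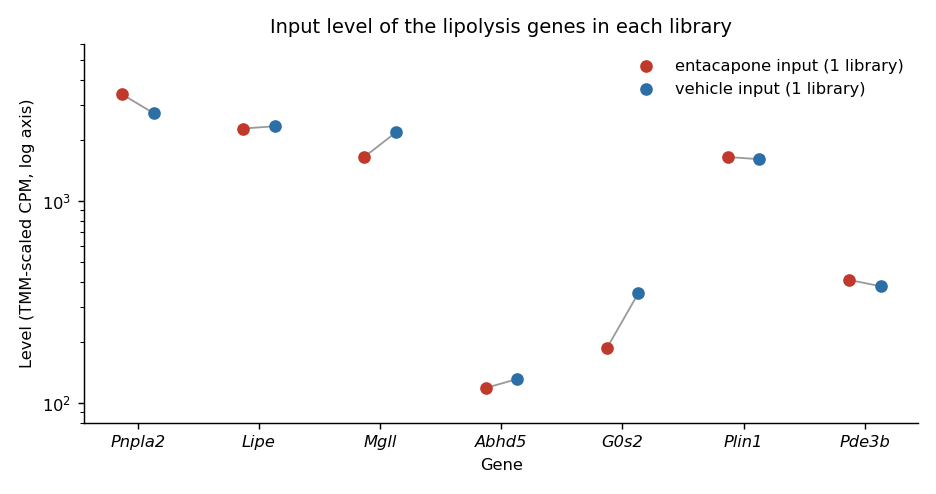
Level of each gene in the entacapone input (red, left) and the vehicle input (blue, right), in TMM-scaled CPM on a log axis, 1 library per point, with a line joining the libraries. G0s2 is at 187 CPM with entacapone against 349 CPM with vehicle, and Pnpla2 at 3383 CPM with entacapone against 2728 CPM with vehicle.

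Setting one gene's counts over another's within a library removes the scaling factor. Pnpla2 had 18.1 counts for each G0s2 count in the entacapone input and 7.81 in the vehicle input, a 2.32-fold difference (95% interval 2.24 to 2.40, from the counts alone). These are ratios of counts and not of molecules, because transcript length enters both, but length is the same in both libraries. Relative to the coactivator Abhd5, Pnpla2 had 28.4 counts per count in the entacapone input and 20.7 in the vehicle input, a 1.37-fold difference (1.31 to 1.44). Against Plin1, the droplet coat, G0s2 had 0.113 counts per count in the entacapone input and 0.216 in the vehicle input. G0s2 was lower in the entacapone library relative to each of the other genes. Its count ratio there was 0.431 of the vehicle value against Pnpla2 and 0.706 against Mgll, with the others between. This comparison was added after the values were seen.

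The other lipases, Mgll and Lipe, also stayed inside 1.5-fold. Mgll (ENSMUSG00000033174) had 56498 counts in the entacapone input and 52273 in the vehicle input, or 1657 CPM with entacapone and 2189.5 CPM with vehicle. The log2 ratio was -0.40, which as a ratio is 0.757 (95% interval 0.748 to 0.766), and 10.0% of identifiers had a lower one. Lipe (ENSMUSG00000003123) had 78050 counts in the entacapone input and 56086 in the vehicle input, or 2289 CPM with entacapone and 2349 CPM with vehicle. Its log2 ratio was -0.038 with TMM factors and 0.043 with library totals, so the direction for Lipe turns with the scaling. Within a library, Pnpla2 had 1.48 counts per Lipe count in the entacapone input and 1.16 in the vehicle input, and it had 2.04 counts per Mgll count in the entacapone input and 1.25 in the vehicle input.

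The remaining regulators differed little. Abhd5 (ENSMUSG00000032540) had 4057 counts in the entacapone input and 3141 in the vehicle input, or 119 CPM with entacapone and 132 CPM with vehicle, a log2 ratio of -0.15. Plin1 (ENSMUSG00000030546) had 56419 counts in the entacapone input and 38527 in the vehicle input, or 1654 CPM with entacapone and 1614 CPM with vehicle, a log2 ratio of 0.036. Pde3b (ENSMUSG00000030671) had 13902 counts in the entacapone input and 9057 in the vehicle input, or 408 CPM with entacapone and 379 CPM with vehicle, a log2 ratio of 0.10. With TMM factors the counting interval excluded no change for all 7 genes, as it did for 7702 of the 13820 identifiers, so an interval that excludes no change says little without replicates. By that rule 4 of the 7 were lower and 3 higher, against 28.4% of identifiers lower and 27.3% higher. With library totals the interval for Abhd5, 0.912 to 1.002 as a ratio, included no change, and with upper-quartile factors that for Lipe, 0.986 to 1.007, did so. With the interval required beyond 2-fold 0 of the 7 were called either way, against 1.34% of identifiers lower and 2.01% higher.

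The median log2 ratio of the 7 genes was -0.038, against 0.0021 over all identifiers tested. Together the 7 genes took 0.997% of the counts in the entacapone input and 0.947% in the vehicle input. Pnpla2 alone took 0.348% of the entacapone counts and 0.265% of the vehicle counts. Scaling by library totals in place of TMM raised every log2 ratio by 0.080 and left the calls as they were, with G0s2 at 192 CPM in the entacapone input and 339.8 CPM in the vehicle input, a log2 ratio of -0.82.

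**Figure D2:**
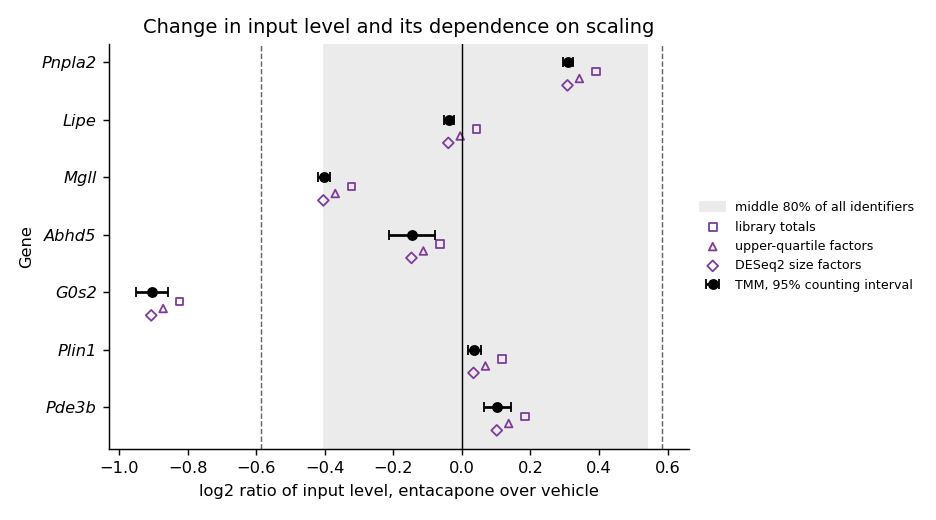
Log2 ratio of input level, entacapone over vehicle, with 95% counting intervals (black, TMM scaling) and under 3 other scalings (purple); dashed lines mark 1.5-fold and the grey band the middle 80% of all identifiers. G0s2, at -0.90, lies beyond the lower line under each scaling shown, and Lipe, at -0.038, crosses 0 with library totals.

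In the m6A lists, 5 of the 7 genes carried an entacapone peak (Lipe, Mgll, Abhd5, Plin1 and Pde3b) and 3 a vehicle peak (Mgll, Plin1 and Pde3b). The shares over all protein-coding genes were 49.1% for entacapone and 40.2% for vehicle. These and the other shares of protein-coding genes below were not matched for input level. Genes with little or no RNA in the tissue enter them, whereas the 7 genes all exceeded 100 CPM on average. Lipe and Abhd5 had peaks in the entacapone list alone, as did 11.3% of protein-coding genes, and 0 of the 7 had peaks in the vehicle list alone, against 2.45%. All 5 peak-bearing genes had more entacapone than vehicle peaks, which held for 28.5% of protein-coding genes and for 55.3% of the 11272 with a peak in either list, and the opposite held for 7.90% of protein-coding genes. Of the 18 entacapone peaks 14 overlapped no vehicle peak, against 44.1% of the whole entacapone list, and of the 5 vehicle peaks 1 overlapped no entacapone peak, against 21.3% of the whole vehicle list. The number deposited with each peak has no label. It is read here as the fold enrichment of the authors' peak caller, on a linear scale, is called the fold below, and ranks peaks within one list. The part of the longer entacapone list and the deeper input in these counts was not tested. The depth of the IP libraries was not analysed here, and its part was not tested either.

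Neither Pnpla2 nor G0s2, the pair that differed most in opposite directions in the input, had a peak in either list. Pnpla2 spans chromosome 7, 141455188 to 141460743, and the nearest peak outside it lay 5483 bases away in the entacapone list and 6386 bases away in the vehicle list. G0s2 spans 1029 bases of chromosome 1, from 193272160 to 193273188, and its nearest peaks lay 7302 bases away in the entacapone list and 7309 bases away in the vehicle list. A gene with no listed peak can still carry m6A below the authors' threshold, which is not given in the sources used here.

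Pde3b had the most peaks of the 7, with 6 in the entacapone list and 1 in the vehicle list. The single vehicle peak, on chromosome 7 from 114435033 to 114435129 with a fold of 5.50, overlapped a wider entacapone peak from 114434754 to 114435093 (339 bases, fold 5.48) by 60 bases. A further entacapone peak, from 114435188 to 114435263 with a fold of 4.08, began 59 bases beyond the vehicle peak. The vehicle peak thus sat between and partly under a pair of entacapone peaks.

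The other Pde3b peaks were in the entacapone list alone. A pair lay close together, from 114441127 to 114441194 with a fold of 7.28 and from 114441311 to 114441360 with a fold of 5.30. The 7.28 peak had the highest fold of all peaks in these genes, and 2.48% of the entacapone list had a higher fold. The last 2, from 114514887 to 114514962 with a fold of 3.10 and from 114536298 to 114536469 with a fold of 1.55, lay toward the higher-coordinate end of the span. Pde3b therefore had 5 more entacapone than vehicle peaks, and 0.914% of protein-coding genes with a peak in either list had 5 or more extra. That share takes genes of every length and the full, unequal lists. Pde3b spans 122717 bases, and the part of its length in this count was not tested.

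Mgll had 5 entacapone peaks and 2 vehicle peaks, and both vehicle peaks were shared. The first shared peak began at base 88813553 of chromosome 6 in both lists, and its fold was 3.75 for entacapone and 3.65 for vehicle. The other began at base 88820247 in both lists, and its fold was 4.07 for entacapone and 4.19 for vehicle. In the entacapone list their midpoints lay 14.8 and 8.08 kb before the end of the gene.

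The 3 Mgll peaks in the entacapone list alone lay near the other end of the gene. They ran from 88730042 to 88730103 (fold 4.75), from 88733629 to 88733721 (fold 2.26) and from 88750087 to 88750178 (fold 5.30), between 5.37 and 25.4 kb after an annotated start. The 4.75 and 2.26 peaks also lay in the span of Gm26588, a long noncoding gene that overlaps the start of Mgll, so their reads may come from either gene.

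Plin1 had 4 entacapone peaks and 2 vehicle peaks on chromosome 7. The shared peak began at base 79729008 in both lists, with a width of 102 bases and a fold of 2.11 in the entacapone list and a width of 193 bases and a fold of 2.46 in the vehicle list. Each list had a further peak near the start of the gene, and the peaks did not overlap: the entacapone peak ran from 79732599 to 79732668 (fold 2.23) and the vehicle peak from 79731852 to 79731928 (fold 2.83), 671 bases apart. The vehicle peak was the 1 peak of these genes found in the vehicle list alone. Toward its other end, Plin1 had a pair of entacapone peaks, from 79723930 to 79723980 (fold 1.92) and from 79724122 to 79724181 (fold 2.38), 2.79 and 2.99 kb from the end of the span.

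Lipe and Abhd5 had only low-fold peaks. The 1 Lipe peak, in the entacapone list, ran from 25395479 to 25395691 of chromosome 7 with a fold of 1.66, and the span of the long noncoding gene 4732471J01Rik covers the same bases. Abhd5 had an entacapone peak just inside its start, from 122351784 to 122351869 of chromosome 9 (fold 1.74), and one near its end, from 122379667 to 122379752 (fold 1.55). Higher folds were held by 97.5% of the entacapone list for the Lipe peak and by 95.4% and 99.6% for the Abhd5 peaks. The lowest fold was 1.49 in the entacapone list and 1.58 in the vehicle list. The weaker Abhd5 peak and the Pde3b peak of 1.55 thus lay under any fold the vehicle list held. Whether a fold means the same in both lists was not tested.

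**Figure D3:**
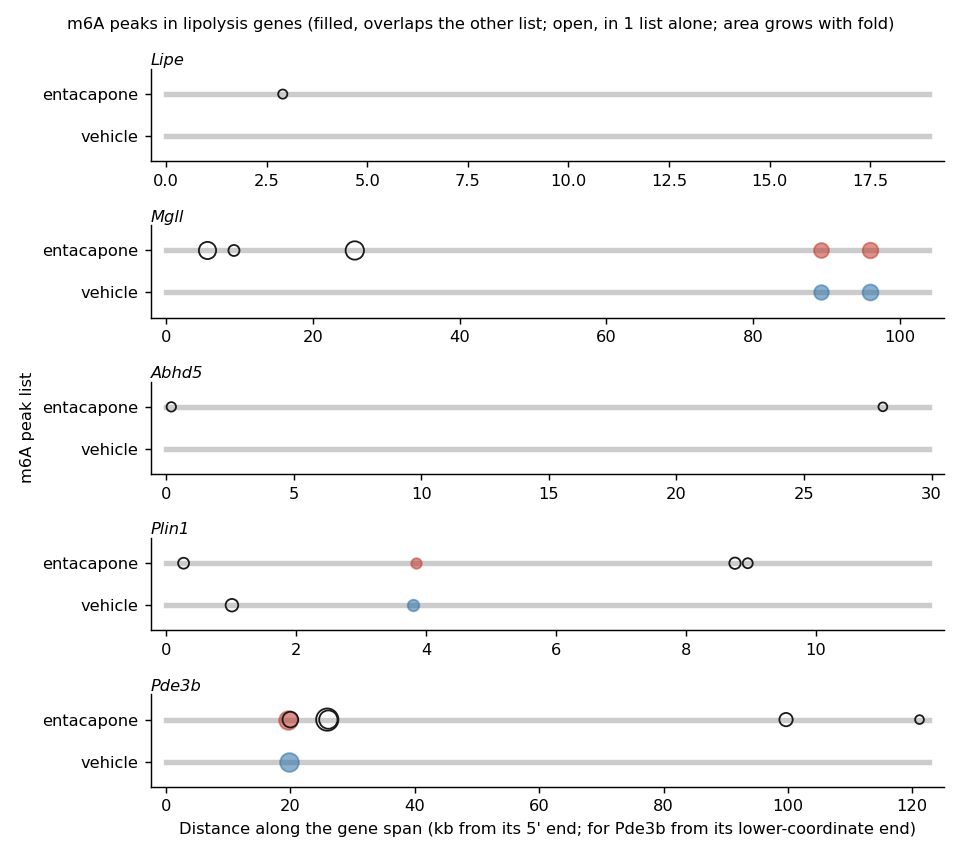
Midpoints of the m6A peaks of 5 genes along the gene span in kb, with the entacapone list above the vehicle list; filled circles overlap a peak of the other list, open circles do not, and circle area grows with the authors' fold. Pde3b has 6 entacapone peaks against 1 vehicle peak and Mgll has 5 entacapone peaks against 2 vehicle peaks, and both vehicle peaks of Mgll are shared.

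Of the 18 entacapone peaks 5 had a fold under 2, against 13.6% of the entacapone list, and 0 of the 5 vehicle peaks did, against 8.04% of the vehicle list. The median fold over these genes was 2.74 in the entacapone list and 3.65 in the vehicle list, where the whole entacapone list had a median of 3.10 and the whole vehicle list one of 3.32. High folds were found in Pde3b and Mgll, and the folds of Plin1 stayed under 3 in both lists. Those of Lipe and Abhd5, which had no vehicle peak, stayed under 2 in the entacapone list.

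**Figure D4:**
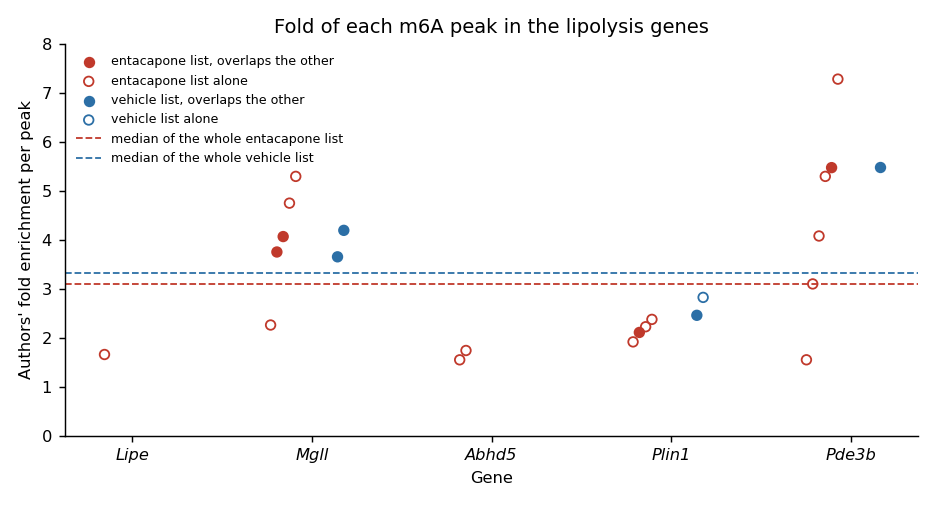
Authors' fold of each m6A peak, with the entacapone list (red) left of the vehicle list (blue) for each gene; filled points overlap the other list, open points do not, and dashed lines are the medians of the whole lists, 3.10 for entacapone and 3.32 for vehicle. Both Abhd5 peaks and the Lipe peak lie under a fold of 2, and the highest point is a Pde3b peak at 7.28 in the entacapone list alone.

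With a fold of at least 2 the 7 genes held 13 entacapone peaks and 5 vehicle peaks, and Lipe and Abhd5 no longer had any, so 3 genes carried a peak in each list. With a fold of at least 4 there were 7 entacapone peaks and 2 vehicle peaks, all in Mgll and Pde3b. Whether an equal fold is an equally strict limit in both lists was not tested. With the 22860 top-ranked peaks of each list there were 9 entacapone peaks and 5 vehicle peaks, and Plin1 turned to 0 entacapone and 2 vehicle peaks. That setting removes entacapone peaks with a fold under 2.39 and no vehicle peak. Pde3b, at 5 entacapone peaks and 1 vehicle peak, and Mgll, at 4 entacapone peaks and 2 vehicle peaks, kept their direction in it. Shares of all protein-coding genes at these limits were not counted, so the member counts cannot be set against them.

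**Figure D5:**
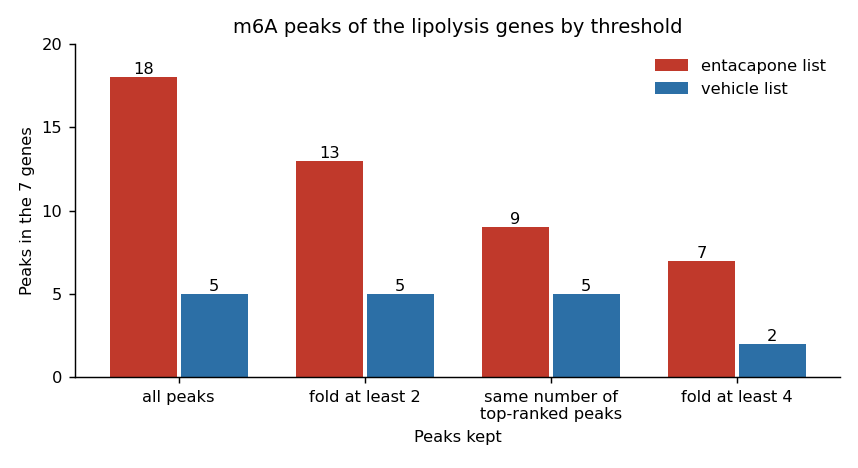
Number of m6A peaks in the 7 genes in the entacapone list (red, left) and the vehicle list (blue, right) for 4 choices of which peaks are kept. The entacapone count is 18, 13, 9 and 7, and the vehicle count 5, 5, 5 and 2.

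Strands and annotated starts were known for 6 of the 7 genes, all but Pde3b. In these, 3 of 12 entacapone peaks and 0 of 4 vehicle peaks had their midpoint within 500 bases after an annotated start, against 10.0% of entacapone and 8.48% of vehicle peaks in protein-coding genes with a known start. All 3 were in the entacapone list alone: the peak of Plin1 142.5 bases after the start, the peak of Abhd5 210.5 bases after it and the peak of Lipe 402 bases after one of its 2 starts. Among entacapone-only peaks the members had 3 of 9 there, and the whole list 13.4%. No peak of Lipe, Mgll, Abhd5 or Plin1 reached a promoter window of the table, which ends 50 bases after the start. Pnpla2 and G0s2 had no peak and Pde3b had no window, so they could not enter this comparison. With so few peaks these shares are a description.

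The wider lipolysis pathway was read in the peak lists through 50 other genes, which comprise receptors, cyclic nucleotide and insulin signalling, droplet proteins and handling of the released fatty acids. Of these, 41 carried an entacapone peak and 31 a vehicle peak, 26 had more entacapone peaks, 4 had more vehicle peaks, 12 had equal numbers and 8 had none. Over all protein-coding genes 49.1% carried an entacapone peak, 40.2% a vehicle peak, 28.5% had more entacapone peaks and 7.90% more vehicle peaks. Those shares include genes with little or no RNA in the tissue. They were not matched for input level, so the higher shares among the 50 genes cannot be read as a trait of the pathway. Among 13 receptors and G proteins, 8 had more entacapone and 3 more vehicle peaks. Adrb3, the β3-adrenergic receptor that starts the lipolytic signal in mouse fat, had 1 entacapone peak (fold 2.29) and 0 vehicle peaks. Adra2a, an adrenergic receptor that opposes it, had 2 entacapone peaks (highest fold 6.63) and 0 vehicle peaks. The inhibitory G protein gene Gnai1 had 0 entacapone peaks and 1 vehicle peak (fold 8.66), the 1 gene of the 50 with a peak in the vehicle list alone. Gnai2, another inhibitory G protein gene, had 1 entacapone peak (fold 2.015) and 0 vehicle peaks.

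Downstream of the receptors, 7 of 13 genes of cyclic nucleotide signalling had more entacapone peaks and 1 had more vehicle peaks. Prkaca and Prkacb, catalytic subunits of protein kinase A, had 1 entacapone peak and 0 vehicle peaks each, with folds of 1.73 and 1.83. Akap1, which anchors that kinase at mitochondria, had 3 entacapone peaks (highest fold 1.83) and 0 vehicle peaks. In insulin signalling 3 of 5 genes had more entacapone peaks and 0 more vehicle peaks. Of 10 lipid droplet proteins and other inhibitors, 1 had more entacapone peaks, 0 had more vehicle peaks, 5 had equal numbers and 4 had none. Of 9 genes for fatty acid and glycerol handling and other lipases, 7 had more entacapone peaks and 0 more vehicle peaks. Among them, Aqp7, the glycerol channel of fat cells, had 2 entacapone peaks (highest fold 3.38). The carboxylesterase Ces1d had 3 (highest fold 2.54) and Ces1f had 1 (fold 3.84). Aqp7, Ces1d and Ces1f each had 0 vehicle peaks. These counts come from the same unequal lists. Of the 42 pathway genes with a peak in either list 26 had more entacapone peaks, against 55.3% of protein-coding genes with a peak in either list, and no difference between the gene groups was tested.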

How the data were processed

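RNA of inguinal white adipose tissue was profiled in 4 libraries, 1 input and 1 m6A IP for entacapone and for vehicle. Per the submitters' processing notes, TopHat2 2.1.1, MACS2 and mm10 were used. For the counting tool, annotation release and peak threshold, a name or value is not given in the sources used here. Input files were deposited as raw counts per Ensembl identifier. The deposited peak lists hold a position and an unlabelled number, read as the authors' fold enrichment. A linear ratio was taken because common values lie at equal steps. In the entacapone list 8 of the 45 commonest ran from 3.09 to 4.89 in steps of 0.258, which are 12 to 19 times that step. In the vehicle list 8 of the 45 commonest ran from 3.56 to 5.44 in steps of 0.269. Those are 13.2 to 20.2 times the step and not whole multiples of it, and the reason was not tested. That it is a fold of IP over input is not stated; coordinates are printed as deposited. Whether counting used strand is not stated.

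With edgeR 4.0.16 in R 4.3.3, TMM factors were fitted on identifiers averaging 1 CPM or more. The log2 ratio is entacapone over vehicle with a prior of 0.5 counts, and its 95% interval is exact conditional (Clopper-Pearson). The interval of a ratio of 2 genes' counts used the normal approximation on the log scale. The code was tested on simulated data. Peaks were given the gene whose RefSeq span (GRCm38.p6) holds the midpoint, protein-coding and shorter genes first, and an overlap of at least 1 bp counted as shared. Starts and strands came from the RefSeq promoter table. The genes, lists and naming rule were chosen with earlier results of these data known. Every gene of the set is named with all its peaks; of the other pathway genes, the first 10 in list order with peaks in 1 list alone are named. Alternatives were DESeq2 1.42.0 size factors, library totals, upper-quartile factors, no filter, other intervals and thresholds, and other rules for peaks.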

Additional observations from a re-analysis of the deposited data

How the results depend on the processing

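No paired analysis was possible because each group is 1 library and the labels carry no replicate numbers; leaving out a library was not possible for the same reason. Under DESeq2 size factors, library totals, upper-quartile factors, no filter and a 99% interval, G0s2 was the 1 gene called lower and 0 were called higher. With the interval required beyond 2-fold 0 genes were called lower, and with an interval that only excludes no change 4 were called lower and 3 higher. Over all identifiers, calls ranged from 546 to 820 higher and from 348 to 548 lower under the scalings, the filter and the 99% interval. They were 278 higher and 185 lower beyond 2-fold, 3776 higher and 3926 lower where the interval only excludes no change, and 31 higher and 102 lower at 100 CPM or more, where fewer identifiers enter. Genes with an entacapone peak fell to 3 at a fold of at least 2, and to 2 both at a fold of at least 4 and with equal numbers of top-ranked peaks. Entacapone peaks fell to 7 at a fold of at least 4 and to 9 with equal numbers. Vehicle peaks fell to 2 at a fold of at least 4. Fewer peaks enter by construction, and shares of all protein-coding genes at these limits were not counted. Any overlap with the gene span gave the same 18 entacapone and 5 vehicle peaks. Counting peaks within 500 bases as shared left 13 entacapone-only peaks in place of 14 and 1 vehicle-only peak, and an overlap of at least 0.5 of either peak changed neither count. Input depth does not limit these genes, the lowest count being 3141; the lack of replicates does.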

Other observations

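Of the 4 pairs of overlapping peaks in these genes, 3 began at exactly the same base in both lists, both pairs in Mgll and the pair in Plin1. Over the whole entacapone list, 532 of 17797 shared peaks (2.99%) began at the same base as a vehicle peak, and 533 ended at the same base. Exon positions were not used here, so whether these bases are exon edges was not tested.

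Many peaks carry the same fold to the last digit deposited. In the entacapone list, the Mgll and Pde3b peaks of fold 5.30 had the same value, which 269 peaks of that list shared, and 236 peaks shared the value of the Pde3b peak of 4.08. In all, 88.3% of the entacapone peaks and 86.5% of the vehicle peaks had a fold that another peak of the same list also had. The fold of such a peak is thus one of a limited set of values, and small differences in fold between peaks carry little.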
